A study of Gallus gallus with 3 samples.

Results

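The forkhead (FOX) transcription factors of the chicken spinal neural tube were described at 2 Hamburger-Hamilton stages of development, HH14 and HH19. All genes whose symbol begins with FOX, a subfamily letter from A to S and a digit were taken, which gave 24 of the 15916 genes in the expression table and 23 distinct symbols, since FOXE1 stood on 2 rows. FOXD3 was taken from a row that carries its protein database name, FOXD3_CHICK. The symbols covered 13 subfamily letters. Another 15 FOX symbols of the RefSeq gene list, among them FOXA1, FOXA2, FOXC1, FOXC2, FOXD1 and FOXJ1, matched no row by name and are not analysed here.

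All samples were wild-type White Leghorn embryos. There were 2 libraries of HH14 and 1 of HH19, made from the polyadenylated RNA of spinal neural tube cut at brachial level and freed by hand from neighbouring tissues, with about 25 embryos pooled for each library. Levels are in TPM, the share of all transcripts after correction for gene length, which can be compared between genes. The HH14 libraries shared 1 deposited value per gene, so the stage comparison carries no replicate error and no test was run on the deposited columns. Genes averaging 1 TPM or more over the 3 libraries were tested by size, and those whose log2(TPM + 1) differed by at least 1, which is 2-fold, were called higher or lower. Differences below are HH19 minus HH14 in log2(TPM + 1), a scale on which differences of low genes come out too small.

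Forkhead factors bind DNA through a winged-helix domain, and the subfamily letters follow the sequence of that domain. Members act as switches of cell identity, as readers of growth and nutrient signals or as drivers of cell division. In the developing spinal cord FOXD3 is known as a neural crest factor, FOXN4 as a factor of V2 interneuron progenitors, FOXP1 as a factor of limb motor neurons, and FOXP4 as a factor that helps differentiating cells leave the neuroepithelium.

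Low TPM values lay on steps of whole reads, after 1 added read per gene and library, and these steps allowed each HH14 library to be read separately for 13 of the 24 FOX rows. The HH14 libraries are called A and B here, of which B was 1.28 times as deep as A, and how many reads each library holds is unknown. The HH14 libraries were far from equal in the 2665 recovered genes that averaged 1 TPM or more. Of these, 25.4% differed 2-fold or more between A and B in plain TPM, a looser scale than log2(TPM + 1). Only genes with a mean below 20 TPM could be recovered, so abundant genes such as FOXP4, FOXM1 and FOXB1 were not compared. Between 10 and 20 TPM 12.5% of genes were recovered, and FOXO3, FOXO6, FOXP1, FOXP2 and FOXK1 were not. Of the 14 FOX genes tested, only 3 were recovered, FOXD3, FOXN3 and FOXN4, and 11 were not. Across recovered genes with over 40 reads the median log2 ratio of A over B was 0.06. The tissue label was checked on 12 measured neural tube genes, which included the neural progenitor genes HES5 (264 and 352 TPM at HH14 and HH19) and NES (366 and 667 TPM). Of these 12 the size rule called 4 higher and none lower, against 3.93% and 1.38% of all genes tested, with a median log2 difference of 0.69. The 4 were the neuronal genes TUBB3 (213 and 540 TPM) and ELAVL4 (68.6 and 144 TPM) and the progenitor genes DBX1 and DBX2. Markers of removed tissues were present at lower levels, with a summed 199.9 TPM at HH14 and 169 TPM at HH19 over 20 surface and placodal ectoderm genes and 70.6 and 46.4 TPM over 20 lateral plate, endoderm and vessel genes. Sums were higher at HH19 for 20 paraxial mesoderm and sclerotome genes (56.7 and 79.6 TPM) and 6 notochord genes (122 and 151 TPM). Most of these last sums lay in PAX3 (45.1 and 61.7 TPM) and in SHH (88.3 and 117 TPM), which are also on the neural crest and floor plate lists used below. Most of the ectoderm sum lay in EPCAM (74.2 and 47.6 TPM) and KRT19 (52.6 and 50.3 TPM).

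At HH19 FOXP4 and FOXO6 were higher by 2-fold or more, and FOXD3 was lower by 2-fold or more. Of the 14 FOX genes tested, 2 were thus higher (14.3%) and 1 was lower (7.14%), against 3.93% and 1.38% of all 11097 genes tested, or 5.31% for either direction. The other 11 lay between -0.25 and 0.57, and 8 of these were above their HH14 value. The median difference of the 14 was 0.26, against 0.05 for all genes tested, of which 55.6% lay above their HH14 value. Without the filter on low values it was 0.02 over all 23 symbols, against 0.03 over all genes, and after quantile normalization the median of the 14 was 0.13, against -0.03 over all genes. These counts rest on single genes, and whether the family stands apart from the background was not tested.

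**Figure D1:**
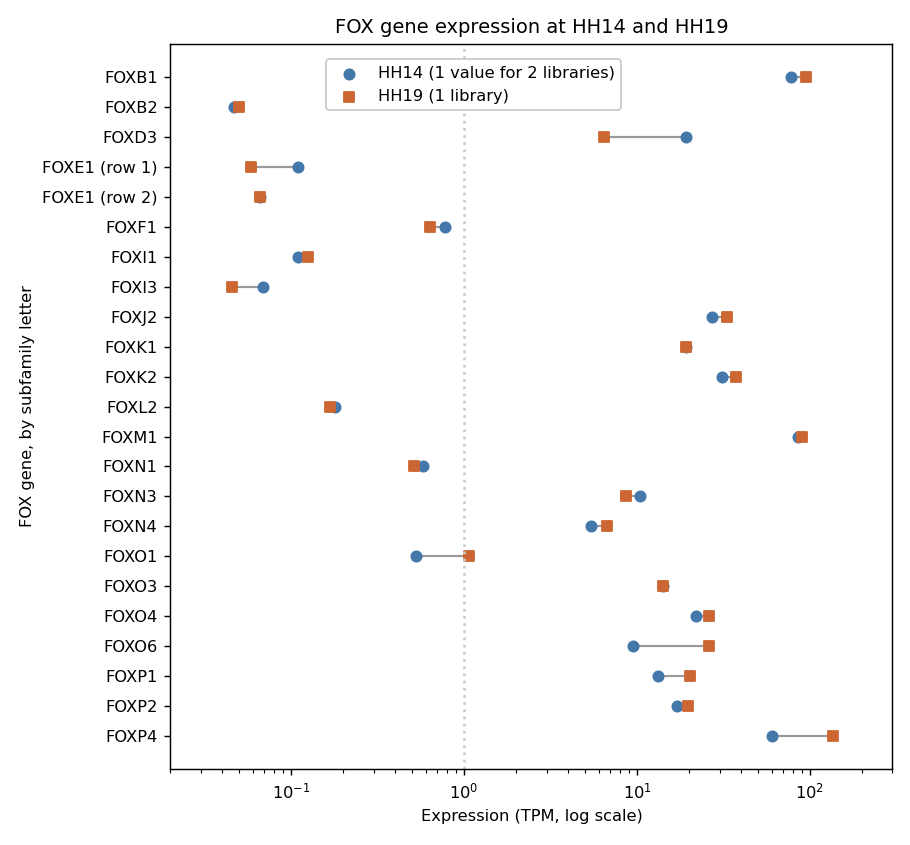
Expression of 23 FOX rows in TPM on a log axis, with circles for the HH14 value and squares for HH19, joined by a line and ordered by subfamily letter; the dotted line marks 1 TPM. FOXP4, FOXO6 and FOXD3 have the longest lines among genes above 1 TPM, and the FOXE, FOXF, FOXI and FOXL genes lie below it.

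The summed expression of the family was 414 TPM at HH14 and 542 TPM at HH19. FOXM1, FOXB1 and FOXP4 made up 54.0% of it at HH14 and 59.3% at HH19. Most of the difference between the sums lay in FOXP4, without which they were 354 and 405 TPM. By subfamily, FOXP was the most abundant at both stages, with 91.0 TPM at HH14 and 177 TPM at HH19, a 1.94-fold difference. FOXO had 46.1 and 67.2 TPM (1.46-fold), and FOXB 77.9 and 95.0 TPM (1.22-fold). FOXK had 50.2 and 56.7 TPM, FOXM 85.0 and 89.9 TPM, FOXJ 27.1 and 33.1 TPM, and FOXN 16.4 and 15.8 TPM. FOXD, represented by FOXD3 alone, was the only subfamily sum past the 2-fold limit, at -1.45. The FOXE, FOXF, FOXI and FOXL sums were each below 1 TPM at both stages.

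**Figure D2:**
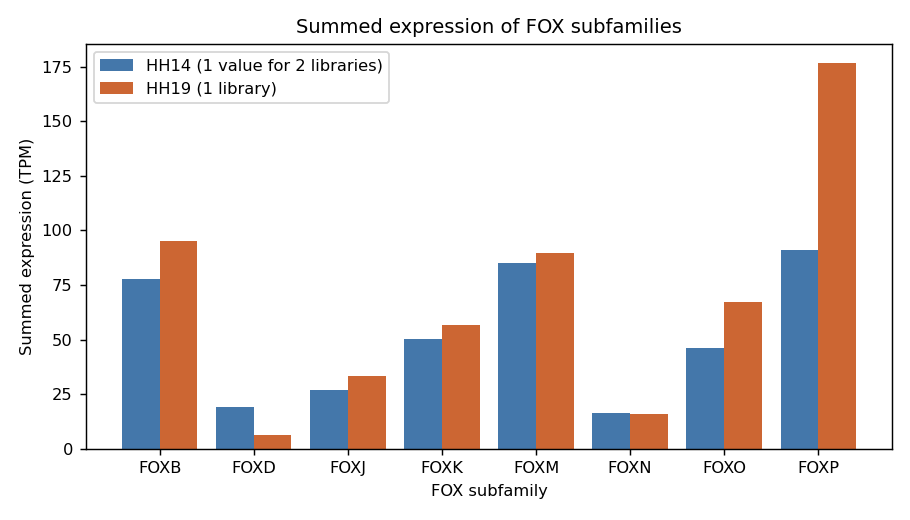
Summed TPM of the 8 FOX subfamilies with a tested member, from a bar axis that starts at 0, at HH14 and HH19. FOXP stands at 91.0 and 177 TPM, FOXO at 46.1 and 67.2 TPM, FOXB at 77.9 and 95.0 TPM and FOXD at 19.3 and 6.42 TPM, the 1 pair in which the HH14 bar is clearly the taller.

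FOXP genes encode repressors that pair with each other through a leucine zipper. FOXP4, which in chick and mouse acts together with FOXP2 to release differentiating cells from the neuroepithelium, stood at 60.7 TPM at HH14 and 137 TPM at HH19 (difference 1.16). It moved from rank 2459 to rank 1068 of all genes and became the most abundant FOX gene. Its HH14 libraries could not be read separately, but a mean of 2 values allows neither to exceed 121 TPM, so if the HH14 value is their plain mean, HH19 was above each HH14 library and at least 1.13-fold above. Among all tested genes, 6.15% had an HH19 value above 2 times their HH14 value in plain TPM.

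FOXP1, which works with HOX factors to set the identity of motor neurons that supply the limb, went from 13.3 to 20.2 TPM (0.57), the largest difference among FOX genes within 2-fold. FOXP2, a marker of V1 interneurons in mouse, had 17.0 and 19.7 TPM (0.20). All 3 FOXP genes lay above their HH14 value. FOXP4 accounted for 66.7% of FOXP transcripts at HH14 and 77.4% at HH19. Beside FOXP1, 4 of 12 tested motor neuron column genes were higher and none lower, against 3.93% and 1.38% of all genes tested, with a median of 0.75. The 4 were ISL1 (2.25 and 12.9 TPM), LHX1, LHX3 and LHX4, LIM homeodomain factors of motor neurons or interneurons. The HH14 libraries were unlike in this list, with 5 of 6 recovered members higher in B and summed levels of 5.71 TPM in A, 22.9 TPM in B and 49.2 TPM at HH19. LHX3 differed from A by 2.69 and from B by 1.10, and of the 4 recovered tested members all 4 were at least 2-fold higher than in A but 2 were so against B. Of the 12 tested neural tube genes 4 were higher too, among them the neuronal genes TUBB3 and ELAVL4 given above. The neuronal gene DCX was not, with 24.5 and 21.0 TPM (-0.21).

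FOXO1, FOXO3 and FOXO4 are kept out of the nucleus when insulin and growth factor signals activate AKT. FOXO6, known in mouse as a FOXO gene of the brain, went from 9.53 TPM at HH14 to 25.9 TPM at HH19 (1.35), or 2.72-fold in plain TPM. It moved from rank 7487 to rank 5044 and from the third to the second most abundant FOXO gene. No HH14 library could exceed 19.1 TPM if the HH14 value is their plain mean, so HH19 lay at least 1.36-fold above each. FOXO4 had 21.9 and 26.2 TPM (0.25) and FOXO3 14.1 TPM at both stages (-0.001). FOXO6 thus went from 20.7% to 38.6% of the summed FOXO transcripts, while FOXO3 went from 30.6% to 21.0%.

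FOXO1, a FOXO gene known from metabolic tissues, was too low to be tested, with 0.529 TPM at HH14 and 1.07 TPM at HH19. It had 0.562 TPM in library A (14 reads), 0.497 TPM in library B (16 reads) and 1.07 TPM at HH19 (29 reads). HH19 was above both HH14 libraries, as for 49.7% of recovered genes that were tested, which FOXO1 was not. Per depth, HH19 had 2.09 times the reads of the HH14 pair, with an exact (Clopper-Pearson) 95% interval of 1.21 to 3.61 that covers counting error only. Between the HH14 libraries, A stood at 1.12 times B per depth, with an interval of 0.507 to 2.45 that reaches past 2.09. Of 23 tested FOXO regulators and targets 1 was higher, the repressor gene BCL6 (5.81 and 16.1 TPM), and none lower, with a median of 0.14. This share of 4.35% is close to the 3.93% of all genes tested. AKT1 had 92.1 and 97.3 TPM.

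**Figure D3:**
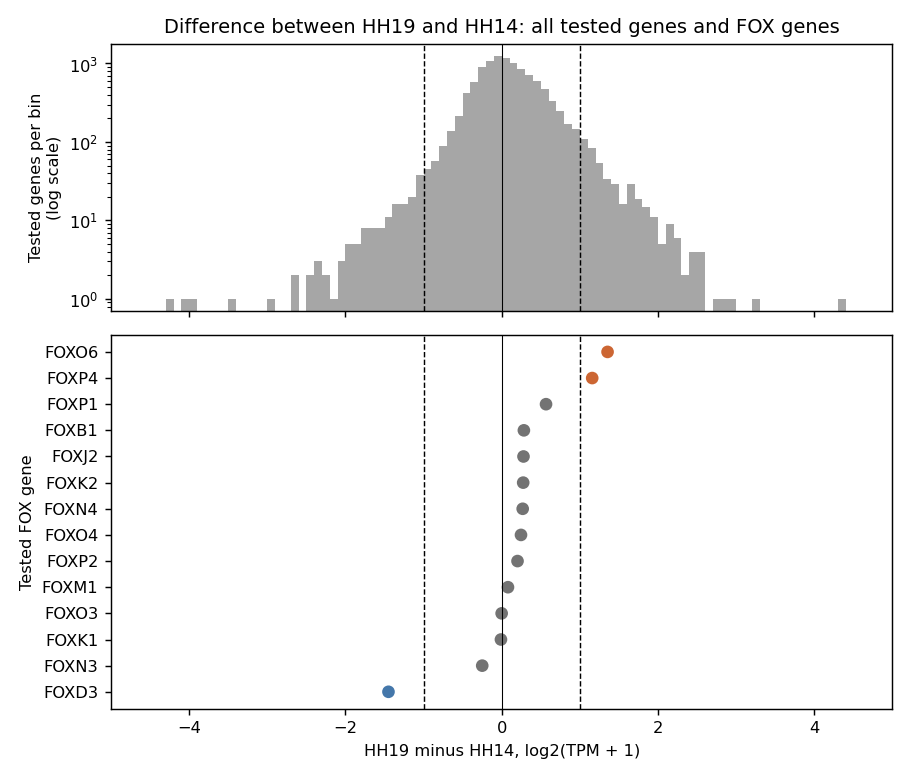
Top, number of tested genes per 0.1-wide bin of the HH19 minus HH14 difference in log2(TPM + 1), on a log axis; bottom, the 14 tested FOX genes on the same scale, with dashed lines at a 2-fold difference. FOXO6 (1.35) and FOXP4 (1.16) lie right of the upper line, FOXD3 (-1.45) lies left of the lower one, and the other 11 lie between -0.25 and 0.57.

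FOXD3, which maintains neural crest cells and their precursors, stood at 19.3 TPM at HH14 and at 6.42 TPM at HH19 (-1.45), or 3.0-fold less in plain TPM. It moved from rank 5770 to rank 8558. It had 23.6 TPM in library A, 14.9 TPM in library B and 6.42 TPM at HH19. HH19 was thus below both HH14 libraries, as for 21.5% of the 2665 recovered genes tested. It was at least 2-fold below each in log2(TPM + 1), by -1.73 against A and -1.10 against B, as for 0.75% of these genes. The HH14 libraries also differed from each other, with A at 1.59 times B per depth (exact 95% interval 1.28 to 1.97, counting error only). With the HH14 libraries as replicates, limma across the 2665 recovered genes gave FOXD3 a difference of -1.42 ± 0.57 (SE), unadjusted p = 0.031 and Benjamini-Hochberg adjusted p = 0.449. In that test 3 genes were called higher (0.113%) and none lower, and 268 had an unadjusted p below 0.05. As a group, genes at the level of FOXD3 have less sure splits than lower genes. Between 10 and 20 TPM 222 genes were recovered, where up to 15.6 solutions were expected by chance. For FOXD3 itself 0.00187 were expected, fewer than for FOXN3 (0.0026) and FOXN4 (0.0064), whose splits are given below.

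Of 16 tested neural crest markers 5 were lower at HH19 and 4 higher, against 1.38% and 3.93% of all genes tested, with a median of 0.49. SNAI2, a factor of epithelial-mesenchymal transition, had 26.3 and 2.45 TPM (-2.99), SOX10, a factor of migrating crest, 23.8 and 3.76 TPM (-2.38), and ITGA4, an integrin subunit, 34.5 and 9.59 TPM (-1.75). SOX9, which neural progenitors share, had 7.45 and 29.9 TPM (1.87). The other markers called higher were SOX8 (1.28), ZIC1 (1.03) and ETS1 (1.01), and the other lower ones were TFAP2A (-1.50) and EDNRB (-1.36). FOXD3 therefore had the direction of SNAI2, SOX10 and ITGA4 but not that of the list's median. Pooled tissue cannot tell fewer cells of a type from less RNA per cell. Surface and placodal ectoderm genes were also lower at HH19, 4 of 16 tested with none higher (median -0.62), against 1.38% lower over all genes tested. The 4 included TFAP2A, which is on both lists and counts in both. Of 15 recovered ectoderm genes 14 were higher in library A than in B, against 52.2% of all recovered genes with at least 20 reads. Of 6 recovered neural crest markers only 1, TFAP2A, was higher in A, whereas FOXD3 was higher in A. Their summed levels were 21.1 TPM in A and 20.1 TPM in B. SNAI2, SOX10 and ITGA4 could not be read in each library. The part of the ectoderm genes in the FOXD3 difference was not tested.

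**Figure D4:**
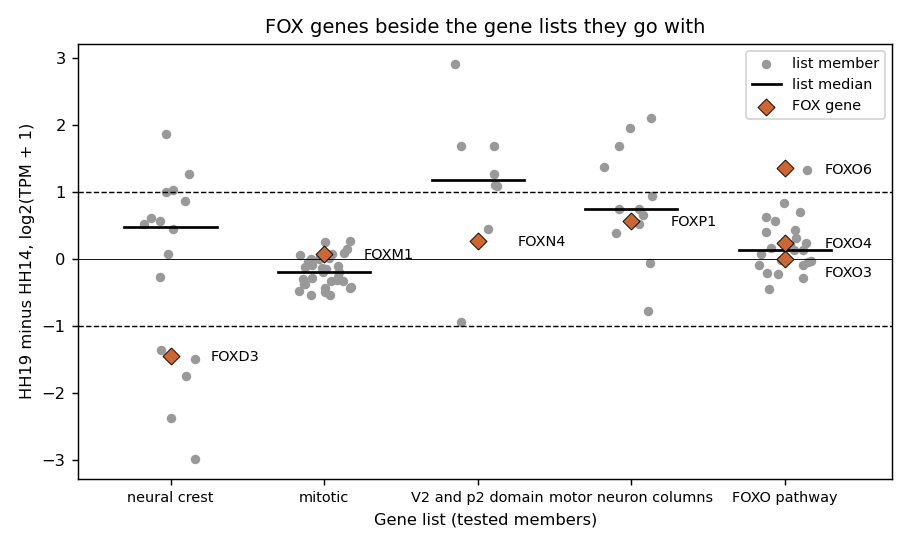
HH19 minus HH14 difference in log2(TPM + 1) for the tested members of 5 gene lists (grey points, median as a bar) and for the FOX genes that go with each list (diamonds); dashed lines mark a 2-fold difference. FOXD3 (-1.45) lies among the lower neural crest genes, FOXN4 (0.27) below the median of its list (1.19) and FOXM1 (0.08) above the median of the mitotic list (-0.19).

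FOXM1 and FOXB1 were the most abundant FOX genes at HH14 and differed little between the stages. FOXM1, which activates genes of the G2 and M phases, had 85.0 and 89.9 TPM (0.08). None of 33 tested mitotic genes was higher or lower, against 5.31% of all genes tested. Their median was -0.19, and 10 of the 33 lay above their HH14 value, against 55.6% of all genes tested. CDK1, the mitotic kinase, had 766 and 527 TPM, and CKS1B, a kinase subunit, 584 and 645 TPM. FOXB1, a factor of the early neuroepithelium in mouse, had 77.9 and 95.0 TPM (0.28). Without a value per HH14 library, the order of FOXM1, FOXB1 and FOXP4 at HH14 could not be set against replicate error.

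FOXN4, which in V2 progenitors switches on Notch ligand genes and directs the V2b fate, had 6.06 TPM in library A, 4.75 TPM in library B and 6.72 TPM at HH19. HH19 was above both HH14 libraries, as for 49.7% of recovered tested genes. The stage difference was 0.27, and per depth HH19 had 1.26 times the reads of the HH14 pair (exact 95% interval 1.08 to 1.47). The HH14 libraries themselves were 1.28-fold apart (1.05 to 1.54), so the stages differed by no more than the HH14 libraries did. The limma difference was 0.28 ± 0.53 (SE), adjusted p = 0.947.

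Of 12 measured V2 interneuron and p2 domain genes 8 passed the filter on low values and were tested. Of these 8, 6 were higher at HH19 and none was called lower, with a median of 1.19. Of all genes tested, 3.93% were higher and 1.38% lower. LMO4 went the other way, with 33.2 and 16.8 TPM (-0.94), just within the 2-fold limit. VSX1, a V2 factor, had 3.41 and 13.2 TPM, and PTF1A, a dorsal factor that FOXN4 activates in the retina, 0.424 and 9.76 TPM. PTF1A had the largest difference among the tested members (2.92) and is 1 of the 6. All 7 recovered members of the list were lower in library A than in B, with summed levels of 7.45 TPM in A, 17.99 TPM in B and 52.8 TPM at HH19, whereas FOXN4 was higher in A. Of 5 recovered tested members 5 were at least 2-fold higher than in A and 4 than in B. The neural tube list, with 4 of 12 higher and a median of 0.69, and the motor neuron list went the same way. The motor neuron list shares LHX3 with the V2 list, a gene with 17.7 TPM at HH19. Whether the V2 genes differed from the other lists was not tested.

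FOXN3, a repressor known as a checkpoint suppressor, had 14.1 TPM in library A, 6.64 TPM in library B and 8.58 TPM at HH19. HH19 lay between the HH14 libraries, which were 2.14-fold apart per depth (1.65 to 2.79). The stage difference of -0.25 in the deposited columns was -0.66 against A and 0.33 against B, so its direction depended on the HH14 library. In limma it was -0.17 ± 0.60 (SE), adjusted p = 0.977. FOXK2 had 30.9 and 37.6 TPM (0.27) and FOXK1 19.3 and 19.2 TPM (-0.01). Both FOXK factors are known as broadly expressed regulators of metabolism and autophagy. FOXJ2, a transcriptional activator, had 27.1 and 33.1 TPM (0.28).

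**Figure D5:**
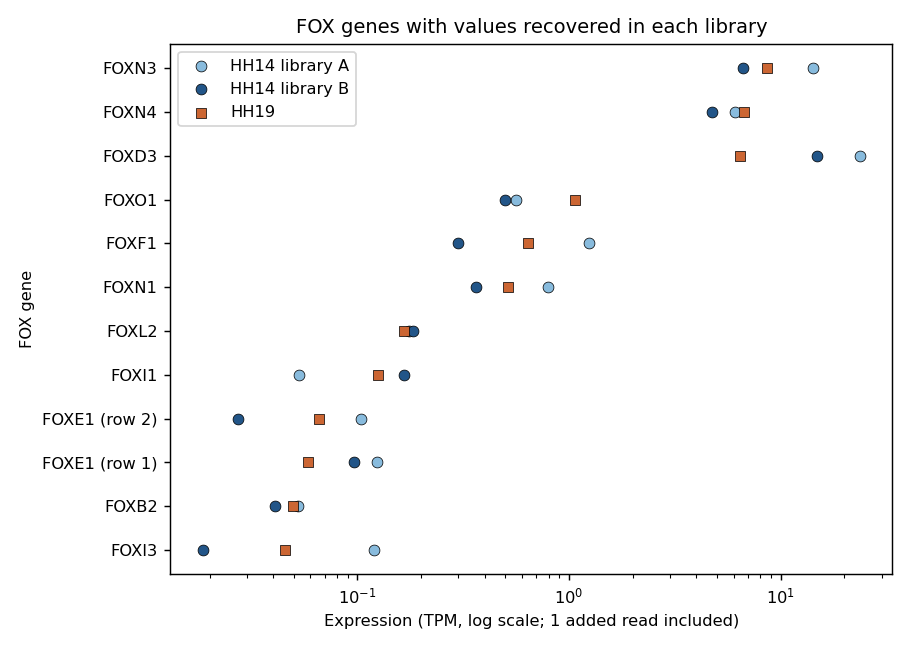
TPM on a log axis of 12 FOX rows that could be read in each library, with circles for HH14 libraries A and B and squares for HH19; each value includes 1 added read. FOXD3 at HH19 (6.42 TPM) lies below both HH14 libraries, FOXO1 (1.07 TPM) above both, and FOXN3, FOXN1 and FOXF1 between them.

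Low FOX genes belonged mostly to subfamilies known from tissues outside the spinal cord. FOXF1, a factor of lateral plate and gut mesoderm, had 1.25 TPM in library A (12 reads), 0.299 TPM in library B (3 reads) and 0.636 TPM at HH19 (6 reads). Library A was highest and B lowest, with A at 5.12 times B per depth (exact 95% interval 1.38 to 28.3). Among lateral plate, endoderm and vessel markers, 8 of 11 recovered ones were also higher in A, including HAND1 (8.21 TPM in A, 0.601 TPM in B and 0.0812 TPM at HH19) and APOA1 (13.6, 2.82 and 2.56 TPM). The others were higher in B, namely TIE1 (0.958 TPM in A and 2.32 TPM in B), LMO2 (1.55 and 2.29 TPM) and CDH5 (0.368 and 0.426 TPM). FOXN1, known from thymus and skin, had 0.799 TPM in A (30 reads), 0.362 TPM in B (17 reads) and 0.514 TPM at HH19 (20 reads). All 6 FOX rows with at least 20 recovered reads, FOXD3, FOXF1, FOXN1, FOXN3, FOXN4 and FOXO1, had the higher value in library A, as did 52.2% of 3790 recovered genes with as many reads.

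The remaining low genes were at the limit of detection. FOXB2, the close relative of FOXB1, had no read in any library in the smallest whole-number solution. Its value of 0.0498 TPM at HH19 is that of 1 added read, and 3 reads, the number that a count of 0 allows, would be worth 0.15 TPM at HH19. FOXI1 and FOXI3, factors of the inner ear placode and of ion-transporting epithelial cells, had 4 and 1 reads at HH19. FOXI1 had 1 read in A and 7 in B, and FOXI3 4 in A and 0 in B. FOXL2, known from ovary and pituitary, had 2 reads in A, 3 in B and 2 at HH19. The FOXE1 rows, for a thyroid factor, had 1 and 2 reads in A, 1 and 0 in B and 0 and 1 at HH19. No stage difference could be detected in these genes at this depth, since each had at most 7 reads in any library.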

How the data were processed

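The stage in each label put 2 libraries in the HH14 group and 1 in the HH19 group. The authors deposited TPM values per Ensembl gene in 1 table, with 1 column for both HH14 libraries and 1 for HH19, which summed to 957154 and 946462 TPM. The submitters' processing notes name the build galGal4 and the tools TopHat2, SAMtools, FastQC and DESeq2. What each tool did, how reads were counted and how the HH14 libraries became 1 column is not stated in any source used here. The protocol text of the HH19 library is the one written for HH14. TPM keeps no read totals, and no label says that the pools came from separate egg batches. Since HH19 has 1 library, p-values and standard errors cover only the spread between the 2 HH14 libraries at hand.

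The FOX genes, the gene lists and the tests were chosen with earlier results of these data known. Values were taken as log2(TPM + 1), and genes averaging 1 TPM or more (HH14 counted for 2 libraries) were tested by size. FOXE1 was taken from its row with the higher mean wherever genes were counted. All FOX genes could be named. In each gene list up to 4 higher or lower members by size of difference and the 2 most abundant of the others could be. HAND1 and APOA1 are given per library under the same rule. DCX is named outside this rule because it lay below its HH14 value. The remaining neural crest markers called higher or lower are also named outside it, as are TIE1, LMO2 and CDH5, which were higher in library B. RefSeq symbols (GRCg7b) served only to count FOX symbols without a match, and no sequences were used here. Of the FOX genes, 1 is not reported here but stays in all counts and sums.

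Whole reads were recovered from the ratio of the columns. Genes without a read in any library (1426) shared an HH14 to HH19 ratio of 0.938, to which library A gave 56.2% and library B 43.8%. For each gene with a mean below 20 TPM, up to 700 HH19 reads were searched for the smallest whole numbers in the 3 libraries that gave its ratio, and a solution was kept if chance alone would give at most 0.01 of them. This limit was chosen after the data were seen. It recovered 7480 genes (47.0%), 556 of 1341 between 5 and 10 TPM. Read numbers, counted with the added read, may be whole multiples of those found, which leaves TPM values unchanged and would narrow the intervals. TPM per library takes the HH14 value as the plain mean of both. Recovered genes were tested with limma with an intensity trend, two-sided with Benjamini-Hochberg adjustment; this was added after the data were seen. The recovery, the size rule and limma were tested on simulated data. The software was limma 3.58.1 in R 4.3.3, and in Python 3.11.15 scipy 1.17.1, pandas 2.3.3, numpy 2.4.6 and matplotlib 3.10.9.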

Additional observations from a re-analysis of the deposited data

How the results depend on the processing

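FOXP4 and FOXO6 stayed at least 2-fold higher and FOXD3 at least 2-fold lower at HH19 under pseudocounts of 0.1 and 5, median-ratio scaling, quantile normalization and summing the rows of a symbol. Their differences ranged from 1.10 to 1.17, from 1.09 to 1.43 and from -1.59 to -1.09. No other tested FOX gene crossed the 2-fold limit under these settings, and the counts of 2 higher and 1 lower also held without a filter on low values and with one at 5 TPM. The counts over all genes moved more. From 436 higher and 153 lower they went to 149 and 46 at a pseudocount of 5 and to 261 and 85 with a filter at 5 TPM. They were 651 and 279 at a pseudocount of 0.1 and 300 and 220 after quantile normalization. Fewer genes pass the stricter filter, and a pseudocount shrinks or widens differences of low genes by construction. FOXD3 missed the threshold in limma (-1.42, adjusted p = 0.449). Stricter chance limits of 0.003 and 0.001 recovered 12 and 10 of the 13 FOX rows, losing FOXN4 first, then FOXN3 and FOXD3. Leaving out each HH14 library could be done only for recovered genes, and not for FOXP4 and FOXO6. No paired analysis was possible because the HH14 libraries share 1 column and HH19 has 1 library. The planned motif search in promoters was not run. Without read totals or a second HH19 library, the error of the stage differences is unknown.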

Other observations

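FOXA2, which specifies the floor plate, and FOXJ1, which drives motile cilia, had no row by name, but genes known to act with them were measured. Of 8 tested floor plate genes 1 was higher at HH19, the bHLH gene FERD3L (5.10 and 18.2 TPM), and none lower, with a median log2 difference of 0.45, and SHH, the ventral signal, had 88.3 and 117 TPM. FERD3L differed between the HH14 libraries, with 1.42 TPM in A and 8.78 TPM in B, and against B alone its difference was 0.98. Of 58 tested motile cilia genes 2 were higher, TPPP3 (8.54 and 20.6 TPM) and RSPH1 (4.62 and 10.5 TPM), and none lower, with a median of 0.03. This share of 3.45% is close to the 3.93% of all genes tested. Against library B alone TPPP3 differed by 0.93, and against library A alone RSPH1 differed by 0.96, both under 2-fold.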
